A study of Danio rerio with 23 samples.

Results

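Ovaries of zebrafish (Danio rerio) that lack the glucocorticoid receptor were compared at 2 ages, 6 and 3 months after fertilisation. The comparison holds the 12 libraries titled GRKO, of 23 in the series: 6 from fish of 6 months and 6 from fish of 3 months. All 12 carry the label of a female ovary, and the genotype of 11 is given as nr3c1 -/-, a loss of the receptor gene in the whole body. The other 11 libraries are of wild-type (WT) ovaries, 6 at 6 months and 5 at 3 months, and they enter only where an age effect in GRKO is set against that in WT. No treatment other than age is given. The mutant allele is not given in the sources used here, nor is it stated that the libraries are of different fish. The p-values therefore rest on how far libraries of an age lie apart, which may be technical in part. GRKO library 4 at 3 months carries the mutant in its title and library name but the wild type in its genotype field and is counted as GRKO here.

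The glucocorticoid receptor is a nuclear receptor that binds cortisol and then switches target genes on or off. In fish, cortisol is the main stress steroid, and the ovary is one of the tissues that express its receptor. The zebrafish ovary holds follicles of every stage at once, each an oocyte wrapped in follicle cells. The series was made to ask whether the ovary ages sooner without the receptor, and within the mutant the comparison of ages shows what changes between a young and an older adult ovary without it. In bulk RNA, a lower level through fewer cells of a type and one through less RNA per cell cannot be told apart.

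The deposited values are estimated counts for 57775 Ensembl transcripts. GRKO libraries summed to 31242818 to 37292796 counts at 6 months and to 30452427 to 37985230 at 3 months. The files do not pair transcripts with genes, and 0 of the identifiers were found in the gene tables used here, so transcripts are named by identifier, without function or sequence, and the tissue label and nr3c1 itself were not checked against marker genes. Levels are in CPM, a count scaled to library size with TMM factors, and are not divided by transcript length.

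Taken one by one, few transcripts separated the older from the younger mutant ovary past the adjusted threshold. Of 25607 transcripts tested, 1 (0.00391%) passed at a Benjamini-Hochberg adjusted p under 0.05 in edgeR's quasi-likelihood test, and it was lower at 6 months. At an unadjusted p under 0.05 there were 3814 (14.9%), of which 1835 were higher (7.17% of those tested) and 1979 lower (7.73%) at 6 months. That share is above the 0.05 that such a cut gives without any effect. Transcripts share the libraries and are not independent, so the excess was not tested. In the edgeR fit of all 23 libraries the unadjusted count was 3179 of 30849. With the library number as a block in that fit it was 1241, which is not above that rate. The tools differed widely. DESeq2, which gave no adjusted p for 5016 of these transcripts, called 1061 (4.14% of all 25607), with 525 higher (2.05%) and 536 lower (2.09%), and limma called 3 (0.0117%), all lower. The edgeR call was also made by both other tools. With all 23 libraries in the edgeR fit, 5 of 30849 transcripts (0.0162%) passed for the same contrast, 1 higher (0.00324%) and 4 lower (0.013%), and the call of the 12 libraries was not among them. The lower ones included ENSDART00000126857.3 (log2 fold change -5.67, edgeR adjusted p = 0.000394) and ENSDART00000160320.2 (-7.54, adjusted p = 0.00418). Both fell short of the filter among the 12 GRKO libraries and are described with the interaction test.

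Most differences were small. The middle 50% of transcripts had log2 fold changes between -0.20 and 0.26 for 6 over 3 months, and the 5th and 95th percentiles were -0.69 and 0.84. The median was 0.01. The plot of the age effect per transcript shows this band around 0 and a thin tail of large positive folds, which is described with the libraries that carry it.

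**Figure D1:**
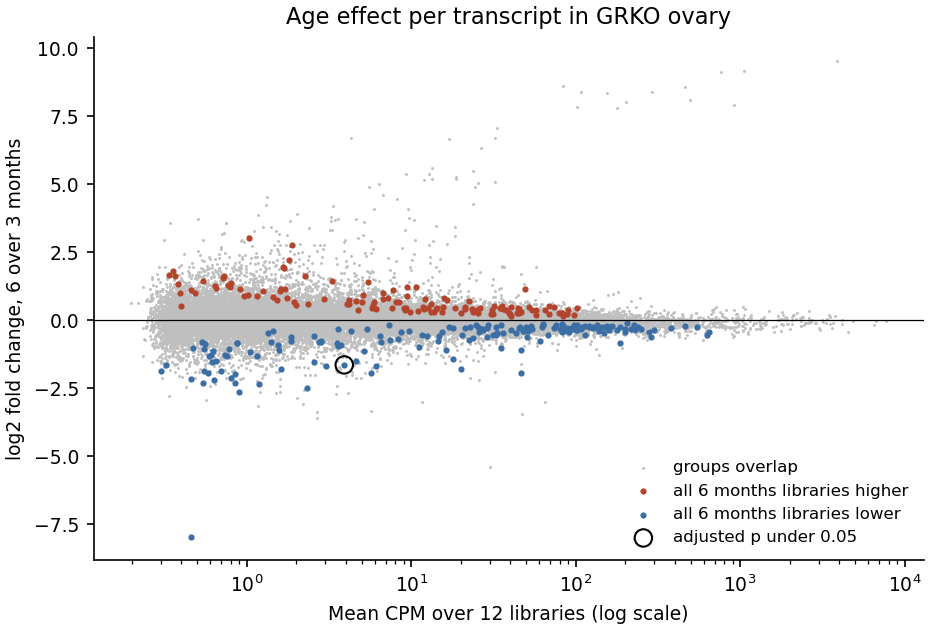
Age effect per transcript in GRKO ovary, with the mean CPM over 12 libraries on a log axis and the log2 fold change of 6 over 3 months on the other axis. Red and blue points are the 122 and 172 transcripts whose 6 months libraries all lay above or all lay below every 3 months library, and the ring marks the 1 transcript past the adjusted threshold.

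The call was ENSDART00000053539.6. Its level at 6 months ranged from 1.36 CPM to 2.52 CPM with a median of 1.93 CPM, and at 3 months from 4.44 CPM to 8.13 CPM with a median of 5.76 CPM. Every library of 6 months thus lay below every library of 3 months. It averaged 1.90 ± 0.40 CPM at 6 months and 5.95 ± 1.20 CPM at 3 months (SD, n = 6 each). The log2 fold change was -1.64 (SE 0.19, edgeR adjusted p = 0.0343), a 3.13-fold lower level. The fold was steady, at -1.54 to -1.95 on the log2 scale in 26 other settings, but the call was lost in 10 of them. Those were the fits of all 23 libraries (adjusted p = 0.208, and 1 with the library number as a block), the fits that left out 1 library alone, being GRKO library 5, 10 or 11 of 6 months or library 7, 9, 10 or 13 of 3 months (adjusted p from 0.0523 to 0.147), and the fit without library 12 of 6 months over the same transcripts (0.0527). The number of calls itself turned on single libraries. It was 0 without library 5 or 10 of 6 months or library 7, 9, 10 or 13 of 3 months, 2 without library 12 of 3 months, 5 without library 2 of 6 months, 12 without library 4 of 3 months and 14 without library 12 of 6 months. In WT ENSDART00000053539.6 stood at 2.48 ± 2.06 CPM (n = 6) at 6 months and 3.04 ± 2.35 CPM (n = 5) at 3 months. The age effect of the genotypes did not differ past the test (interaction -1.35, SE 0.74, adjusted p = 1).

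Next in the lower direction by p, under the naming rule of 1 CPM or more on average, was ENSDART00000078230.5, short of the threshold. It had 61.7 CPM to 76.1 CPM with a median of 71.4 CPM at 6 months, against 90.4 CPM to 99.3 CPM with a median of 96.1 CPM at 3 months. The ages did not overlap, and both were tight. Its means were 70.4 ± 5.6 CPM at 6 months and 95.3 ± 4.2 CPM at 3 months (SD, n = 6 each). Its log2 fold change was -0.44 (SE 0.06, edgeR adjusted p = 0.0686). In WT it had 61.2 ± 4.75 CPM (n = 6) at 6 months and 75.2 ± 14.6 CPM (n = 5) at 3 months. Its age effect did not differ between the genotypes past the test (interaction -0.14, SE 0.13).

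No transcript passed in the higher direction, so the 2 of smallest p under the same naming rule stand for it. ENSDART00000053152.6 had 12.2 CPM to 17.7 CPM with a median of 15.9 CPM at 6 months, and 8.46 CPM to 9.83 CPM with a median of 8.94 CPM at 3 months. All 6 older libraries were above all younger ones, and the younger ones lay within a narrow range. The log2 fold change was 0.76 (SE 0.11, edgeR adjusted p = 0.0686). The adjusted p was 0.0142 in the edgeR fit of all 23 libraries, 1 in that fit with the library number as a block (log2 fold change 0.60), and 0.0442 to 0.204 with 1 library left out. ENSDART00000073596.7 had 43.9 CPM to 50.2 CPM with a median of 47.6 CPM at 6 months, and 28.6 CPM to 37.5 CPM with a median of 34.5 CPM at 3 months. Again the ages did not overlap. Its log2 fold change was 0.50 (SE 0.08, adjusted p = 0.0985). In WT, ENSDART00000053152.6 had 17.9 ± 3.10 CPM (n = 6) at 6 months and 14.0 ± 0.429 CPM (n = 5) at 3 months. ENSDART00000073596.7 had 52.8 ± 8.07 CPM (n = 6) at 6 months and 49.7 ± 9.19 CPM (n = 5) at 3 months in WT. For neither did the age effect differ between the genotypes past the edgeR test. The interactions were 0.42 (SE 0.17, adjusted p = 0.821) and 0.42 (SE 0.16, adjusted p = 0.81). None of the 4 transcripts had a whole estimated count in any GRKO library, so reads shared with other transcripts may enter their values.

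**Figure D2:**
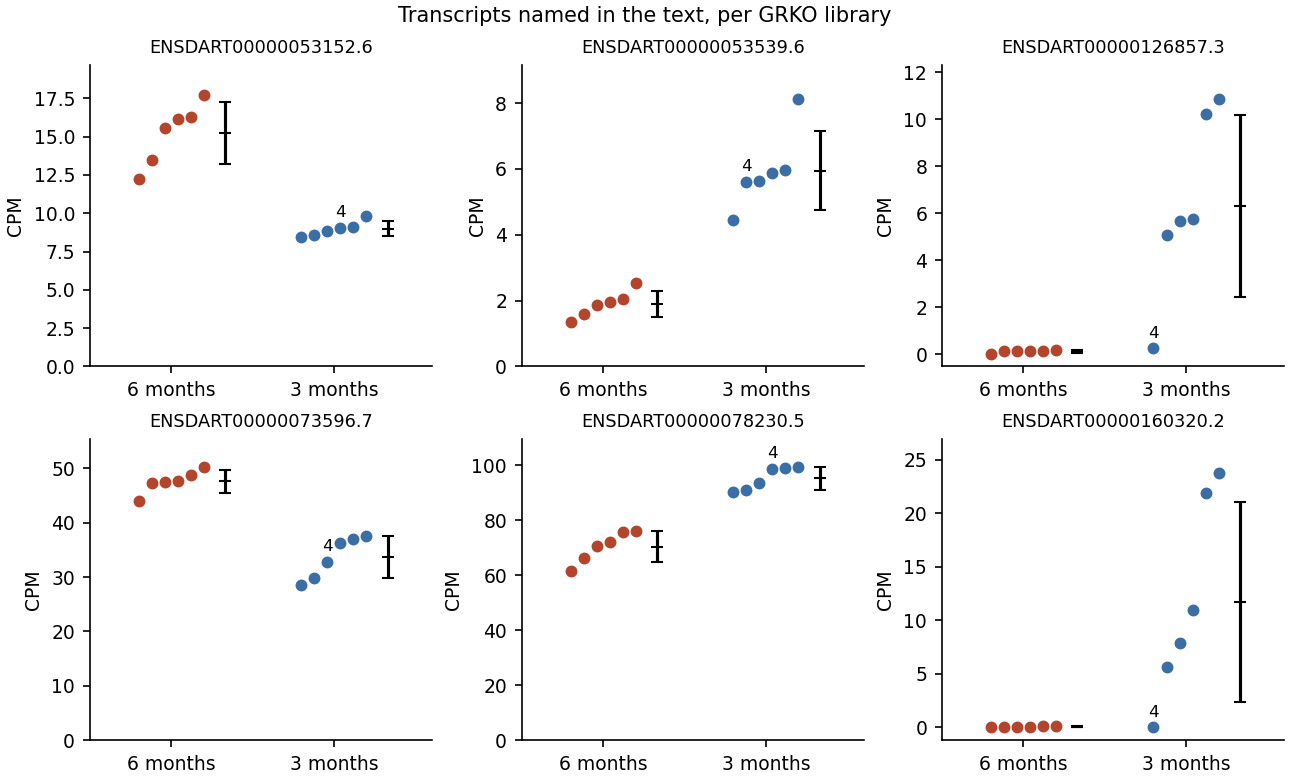
CPM in each GRKO library for the 2 transcripts named as higher (left), the 2 named as lower (middle) and the 2 past the test of the difference between genotypes (right), with 6 months left of 3 months and mean ± SD (n = 6) beside the points. In the left and middle panels the ages do not overlap; in the right panels library 4 of 3 months, marked 4, lies near the 6 months libraries.

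Without a model, 294 of the 25607 transcripts (1.15%) had no overlap between the ages: 122 higher (0.476%) and 172 lower (0.672%) at 6 months. For 6 against 6 libraries, a transcript without any age effect meets this rule with a probability of 0.00216. Whether the share exceeds that was not tested, since transcripts are not independent. Their median size was 0.50 on the log2 scale, and 73 differed more than 2-fold. The smallest was 0.11. None was at 0 throughout one age and at 1 CPM or more throughout the other. With 1 rounded count or more in place of 1 CPM, 5 of the 57775 transcripts were at 0 throughout 6 months and 3 at 0 throughout 3 months. Of the 5, 1 entered the test. It had 0.475 CPM to 1.79 CPM in the 6 libraries of 3 months and did not pass (edgeR adjusted p = 0.0588). With RLE and upper-quartile scaling the counts were 135 higher and 168 lower, and 140 higher and 183 lower. Leaving out 1 of libraries 2, 10, 11 or 12 of 6 months or of libraries 7, 10, 12 or 13 of 3 months raised at least 1 of the counts more than 1.5 times, to 185 to 436 higher or 290 to 755 lower. Fewer libraries by themselves make separation easier, so a rise alone does not single out a library.

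Direction differed with abundance. Among the 1915 transcripts over 100 CPM on average, 363 were lower and 76 higher at an unadjusted p under 0.05, and 43 were lower without overlap against 1 higher. Their median log2 fold change was -0.08, and the 43 had a median of -0.30, so these were broad and shallow differences. In the class of 1 to 10 CPM the balance was the other way, with 722 higher and 519 lower (12.9% of 9584). The class of 10 to 100 CPM was near even, with 776 higher and 896 lower (19.4% of 8621). The class under 1 CPM had 261 higher and 201 lower (8.42% of 5487). Without overlap there were 45 higher and 36 lower at 1 to 10 CPM, and 58 higher and 66 lower at 10 to 100 CPM. Under 1 CPM there were 18 higher and 27 lower without overlap. The excess of lower values over 100 CPM was seen with RLE scaling (366 lower, 86 higher), upper-quartile scaling (399 lower, 87 higher) and DESeq2 (152 lower, 36 higher past its adjusted threshold). It lay between 74.1% and 86.6% lower when any 1 library was left out, and was gone with the library number as a block (44 lower, 43 higher). The summed share of counts in transcripts over 100 CPM was 63.9% ± 2.54 at 6 months and 64.6% ± 1.6 at 3 months (SD, n = 6 each). It did not differ past a two-sided exact permutation test (p = 0.569, adjusted p = 0.813 over 10 measures). For this share the class was set on CPM without TMM factors, so its members can differ from the 1915. It takes in ENSDART00000050238.6, which alone held 2.93% and 1.53% of the counts in libraries 10 and 12 of 6 months. The share without that transcript was not computed. Transcripts are not independent replicates, so the counts describe the direction and do not test it.

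**Figure D3:**
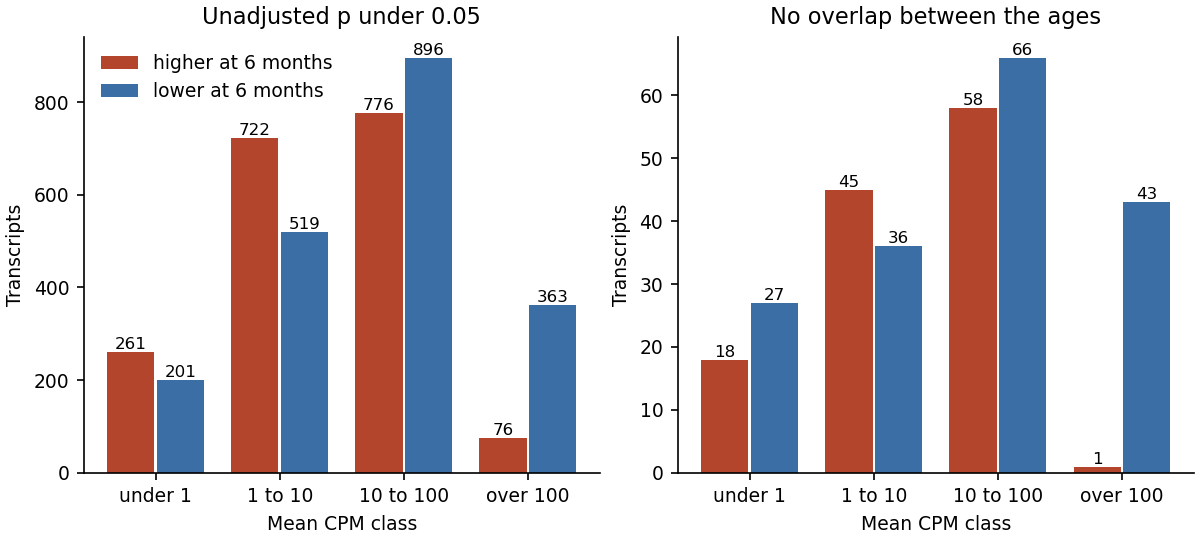
Numbers of transcripts higher (red) or lower (blue) at 6 months in GRKO ovary, by mean CPM class, at an unadjusted p under 0.05 (left) and with no overlap between the ages (right). Over 100 CPM, 363 against 76 and 43 against 1 were lower.

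The libraries of 6 months were less alike than those of 3 months, through 1 library above all. Across the tested transcripts, pairs within 6 months correlated at 0.853 to 0.944 (median 0.920, 15 pairs) and pairs within 3 months at 0.919 to 0.949 (median 0.934, 15 pairs). Pairs across the ages had a median of 0.915 (36 pairs). Without library 12, pairs within 6 months ranged from 0.914 to 0.944. Library 12 of 6 months correlated at 0.853 to 0.905 with the other libraries of its age and at 0.894 to 0.918 with those of 3 months. All 6 libraries of 3 months had a higher median correlation with their own age than with the other. At 6 months only libraries 3 and 5 did.

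The first principal component of the 12 libraries (24.7% of the variance of log2 CPM) did not divide the ages. Library 12 of 6 months lay at 138 on it and library 10 of 3 months at 93.8, while the other libraries of 6 months lay between -92.3 and -8.71 and the other libraries of 3 months between -2.41 and 17.9. On the second component (13.6%), libraries 10 and 12 of 6 months lay at 84.5 and 80.2, and the other 4 of that age between -18.1 and 38.4. Libraries of 3 months lay between -58.5 and 11.5. Leaving library 12 aside, every library of 6 months lay below every library of 3 months on the first component.

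**Figure D4:**
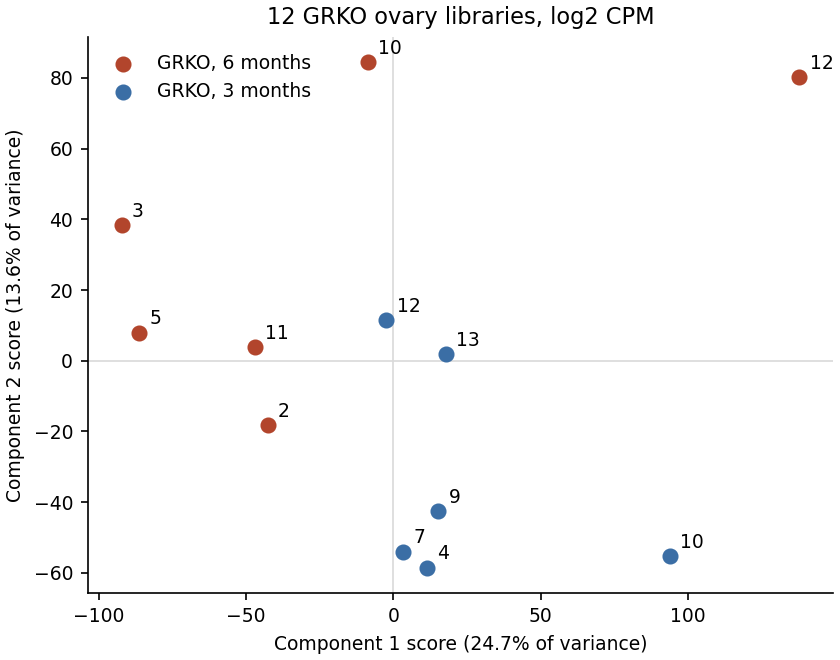
Scores of the 12 GRKO libraries on the first 2 principal components of log2 CPM over 25607 transcripts, with library numbers from the titles. Library 12 of 6 months stands at 138 on the first component, on the side opposite to the other libraries of its age.

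Spread was also measured as each library's root mean square distance, in log2 CPM, from the mean of the other 5 libraries of its age. It averaged 0.941 ± 0.194 at 6 months and 0.828 ± 0.0715 at 3 months (SD, n = 6 each). The difference of 0.113 did not pass a two-sided permutation test over all regroupings of the 12 distances (p = 0.182, with 0.00216 the smallest possible). The distances were not recomputed for each regrouping. Libraries of an age also enter each other's reference mean, so this p is approximate. Library 12 stood at 1.33, and the other 11 libraries lay between 0.724 and 0.936. Without library 12 the difference was 0.0271 (same permutation test, p = 0.526), and without libraries 10 and 12 it was 0.0187 (p = 0.662). With library 2, 5 or 11 of 6 months left out in place of library 12, the permutation p was 0.026, 0.039 and 0.0411. With libraries left out, the references at 6 months were means of fewer libraries than at 3 months. This by itself raises the distances of 6 months, so these p-values do not establish a wider spread.

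**Figure D5:**
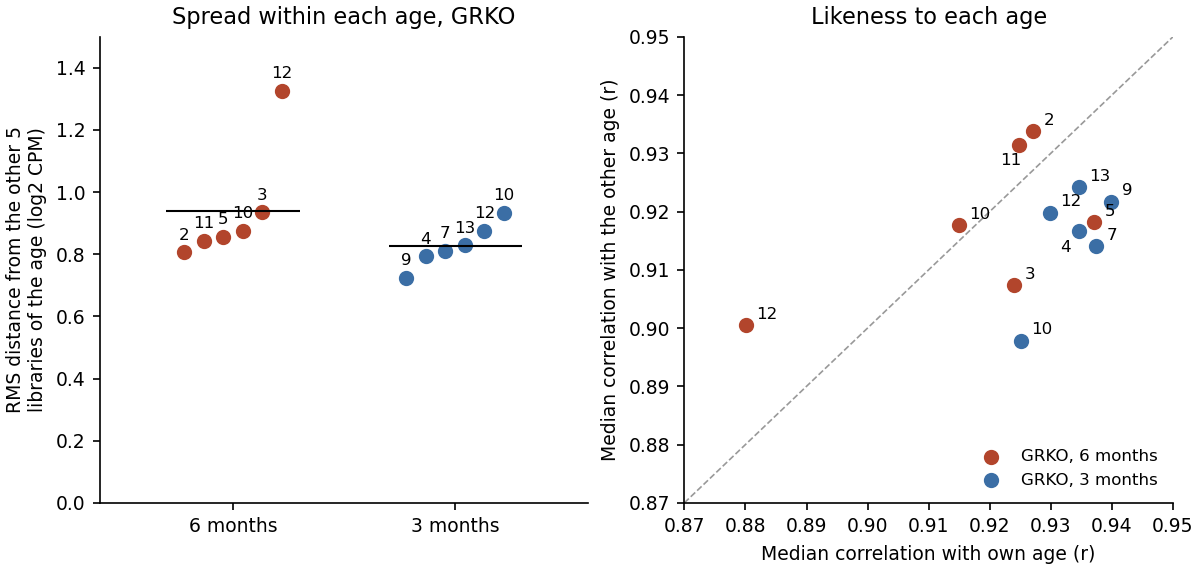
Left, the root mean square distance of each GRKO library from the mean of the other 5 of its age, with the age means as lines; library 12 of 6 months stands at 1.33. Right, each library's median correlation with its own age against that with the other age; the 4 points above the dashed line of equality are all of 6 months.

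Transcript by transcript, the SD at 6 months was larger for 62.2% of those tested, with a median SD of 0.411 at 6 months and 0.345 at 3 months on the log2 scale. Without library 12 this turned round, to 47.3%, with medians of 0.330 at 6 months and 0.345 at 3 months. Leaving out the library farthest from its age lowers the SD of that age by itself. No library of 3 months was left out for this comparison. Library 12 held the highest value of the 12 libraries for 3758 and the lowest for 3624 of the 20120 transcripts with a mean of 1 CPM or more. The next in number was library 5 of 6 months with 2367 highest, and library 3 of 6 months with 2818 lowest. The unadjusted count was 6097 without library 12, against 3814 with it. The adjusted count was then 14, or 0 over the same 25607 transcripts (6053 at an unadjusted p under 0.05), where all 4 transcripts named above stood at an adjusted p of 0.0527. Transcripts without overlap then numbered 436 higher and 755 lower, more in each direction than without any other single library.

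The largest positive folds were mainly carried by libraries 10 and 12 of 6 months. Of 73 transcripts with a fitted fold of 8 or more higher at 6 months, 50 had these 2 libraries as the highest of the 12, and 1 had no overlap between the ages. All 12 of the 73 with a mean of 100 CPM or more followed that pattern. Among them was ENSDART00000050238.6, with the highest CPM of any transcript in any GRKO library. It was named here after its values were seen. It reached 28643 CPM in library 10 and 18131 CPM in library 12, which is 2.93% and 1.53% of all counts in those libraries, and 0 to 2.1 CPM in the other 4 libraries of 6 months. At 3 months it ranged from 0.207 CPM to 46.7 CPM with a median of 3.00 CPM. It was thus far higher in 2 libraries of 6 months than in any of 3 months, while the other 4 of 6 months lay below the 3 months median. It did not pass the test (edgeR adjusted p = 0.204). In WT it averaged 108 ± 220 CPM (n = 6) at 6 months and 3208 ± 4715 CPM (n = 5) at 3 months, the opposite direction, which did not pass either (log2 fold change -4.90, edgeR adjusted p = 0.541). High levels were therefore not confined to the mutant. Picked for being high in these 2 libraries, 88 of the 57775 transcripts were at 10 CPM or more in both and under 1 CPM in the other 10. Only 9 of those entered the test, since the filter asks for counts in 6 libraries, and untested transcripts held 2.5% and 2.13% of the counts of libraries 10 and 12, against 0.167% to 0.365% in the others. Of the 88, 86 reached 1 CPM or more in at least 1 WT library. No count like the 88 is given here for other pairs of libraries. Without both libraries, 26 transcripts passed, 18 higher and 8 lower, and 970 higher and 1137 lower had no overlap with 4 libraries left at 6 months. Folds of 8 or more in the lower direction were fewer, at 9 transcripts, of which 1 had no overlap.

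Presence and absence also varied more within 6 months than within 3 months when all 6 libraries of each age were included. In all, 12526 transcripts reached 10 CPM in at least 1 GRKO library. Those that also had a rounded count of 0 in another library of the same age numbered 404 within 6 months. There were 169 within 3 months, and 107 transcripts varied in this way within both ages. Without library 12 the number within 6 months was 200 over 5 libraries, and without libraries 10 and 12 it was 91 over 4. Fewer libraries by themselves lower such a count, and no count over 5 or 4 libraries was made for 3 months. The part of libraries 10 and 12 in the excess is therefore not shown. Whether kallisto gave the reads of such transcripts to others was not tested.

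Depth and complexity did not differ between the ages past the test. Transcripts at 1 CPM or more numbered 20015 ± 770 at 6 months and 19602 ± 484 at 3 months (SD, n = 6 each; two-sided exact permutation test, p = 0.277, adjusted p = 0.693 over 10 measures). The 10 most abundant transcripts of each library held 5.73% ± 1.09 of the counts at 6 months and 5.14% ± 0.31 at 3 months (exact permutation p = 0.262, adjusted p = 0.693), with libraries 10 and 12 of 6 months highest at 7.28% and 6.77%. The 100 most abundant held 23.5% ± 1.92 at 6 months and 22.7% ± 1.79 at 3 months. Over the 10 measures the smallest adjusted p was 0.63, for the shares of the classes under 1 CPM and of 1 to 10 CPM.

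Library 4 of 3 months resembled the other mutants. Its median correlation was 0.935 with the other GRKO libraries of its age and 0.848 with WT libraries of that age. Of 5 transcripts at 1 CPM or more in all 11 WT libraries and at 0 in the other 11 GRKO libraries, all 5 were at 0 in library 4. It did differ from its group at single transcripts. Without it 12 transcripts passed, 1 higher and 11 lower at 6 months, and for 8 of these library 4 lay within or under the range of the 6 months libraries. Over the 25607 transcripts tested with it, 7 passed when it was left out, all lower. The 2 transcripts past the interaction test were among the 12.

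The age effect differed between GRKO and WT past the test for 2 of 30849 transcripts (0.00648%), in the edgeR fit of all 23 libraries. At an unadjusted p under 0.05 there were 1490 of the 30849, no more than such a cut gives without any effect. ENSDART00000126857.3 had 0.0252 CPM to 0.170 CPM with a median of 0.132 CPM in GRKO at 6 months, and 0.260 CPM to 10.9 CPM with a median of 5.71 CPM in GRKO at 3 months. The ages did not overlap, but library 4 held the lowest value of 3 months, and the other 5 were at 5.09 CPM or more. In WT it had 7.98 ± 1.65 CPM (n = 6) at 6 months and 8.49 ± 5.41 CPM (n = 5) at 3 months. The age effects differed by -5.58 on the log2 scale (SE 0.81, adjusted p = 0.0258).

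ENSDART00000160320.2 had 0 to 0.112 CPM with a median of 0.0596 CPM in GRKO at 6 months, and 0.0289 CPM to 23.7 CPM with a median of 9.42 CPM in GRKO at 3 months. Here library 4, at 0.0289 CPM, lay within the range of the older mutants, and the other 5 were at 5.67 CPM or more. In WT it had 32.7 ± 9.93 CPM (n = 6) at 6 months and 24.8 ± 24.4 CPM (n = 5) at 3 months, and the interaction was -7.94 (SE 1.27, adjusted p = 0.0484). Both fell short of the filter among the 12 GRKO libraries because of library 4, with 9.32 and 1.19 estimated counts there, and so were not in the 25607. The number of interaction calls was 0 without any 1 of GRKO libraries 2, 5, 10, 11 or 12 of 6 months or 7, 9, 10 or 13 of 3 months, 1 without library 3 of 6 months or 12 of 3 months, and 140 without WT libraries 2 and 6 of 3 months. DESeq2 called 308.

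Across all 25607 transcripts, the age effects in GRKO and in WT had the same sign for 66.0%. They correlated at r = 0.15 (Spearman's rho 0.38) in the fit of 23 libraries, across transcripts, which share the libraries and are not independent; no library enters both effects. Of the transcripts without overlap in GRKO, 82.8% of the 122 higher and 82.6% of the 172 lower had the same sign in WT, and 2 and 7 of them had no overlap in WT in the same direction. Over all 25607 that WT rule was met by 0.406% in the higher and 0.605% in the lower direction.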

How the data were processed

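Ovary RNA was purified on columns and poly(dT) captured for sequencing, per the labels' protocols. The deposited values are estimated counts per transcript; the submitters' processing notes name kallisto 0.48.0 and the build GRCz11. Of the nonzero values in GRKO, 74.8% were not whole (tolerance 1e-06), since kallisto divides reads between transcripts they match. The sources used here give no strand setting, annotation release or read filter.

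Counts were rounded and tested with edgeR 4.0.16 (quasi-likelihood, robust, TMM, R 4.3.3) on the 12 GRKO libraries, after the default filter (10 counts at the median depth in 6 libraries, total of 15), which kept 25607 transcripts and a median of 99.7% of counts. Only GRKO entered because young WT libraries were known to be split; the interaction used all 23. SE is the log2 fold change over the square root of F. Named transcripts are the 2 of largest fold each way among those past an adjusted p of 0.05, at 1 CPM or more and on 1 side of the 3 months median, filled up by smallest p. Members, rules and lists were chosen with earlier results of these data known; gene lists were not used because identifiers carry no names. A prior count of 2 was added for log2 CPM in distances and components. No 2 libraries within an age had the same counts up to sampling noise. The smallest chi-square per degree of freedom between 2 of them was 28.3 (transcripts with at least 20 counts in the pair). This does not show that they come from different fish. Alternatives were limma 3.58.1, DESeq2 1.42.0, RLE or upper-quartile factors, other filters, thinning, whole counts, all 23 libraries, a block and libraries left out. The test was checked on simulated counts. Figures used matplotlib 3.10.9 in Python 3.11.15.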

Additional observations from a re-analysis of the deposited data

Results flagged for a closer look

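Of 36 groups of 6 GRKO values examined, 3 had 1 library far from the others, by a rule that flags about 1 in 20 by chance. The groups share libraries, and ENSDART00000126857.3 and ENSDART00000050238.6 were named for their results in these data, so that rate need not hold. Whether 3 is more than chance gives was not tested. Library 12 of 6 months was farthest from its age, at a distance of 1.33. Library 3 of 6 months had the lowest level of ENSDART00000126857.3 at that age, 0.0252 CPM, which is about 1 estimated count. Library 12 of 3 months had 46.7 CPM of ENSDART00000050238.6, the transcript whose levels were highest in libraries 10 and 12 of 6 months.

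For 2 transcripts the age effect differed between GRKO and WT, with interactions of -5.58 for ENSDART00000126857.3 and -7.94 for ENSDART00000160320.2 on the log2 scale (edgeR, adjusted p = 0.0258 and 0.0484). In other settings their adjusted p ranged from 8.55e-10 to 0.257 and from 8.48e-10 to 0.369, and the calls were lost in 10 and 12 of 15.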

How the results depend on the processing

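For the age effect in GRKO, RLE and upper-quartile factors, no robust estimation and a filter of 1 CPM in 6 libraries each gave 1 call. Other settings gave 1061 (DESeq2), 3 (limma), 2 (no filter), 5 (all 23 libraries), 26 (without libraries 10 and 12 of 6 months) and 3 (thinned to the smallest total). Over the 3827 transcripts with whole counts there were 0, and 794 had an unadjusted p under 0.05. ENSDART00000053539.6 was not among those 3827, so its call could not be made there. Leaving out 1 library gave 0 to 14. Settings chosen after seeing the data gave 6 (filter in 5 libraries), 7 (without library 4 of 3 months, same transcripts) and 0 (without library 12 of 6 months, same transcripts, with 6053 unadjusted). The unadjusted count was 5825 with limma, 6185 with no filter, 6145 without libraries 10 and 12, and 2924 to 6097 with 1 library left out. The cause of these changes was not tested, apart from the smaller number of transcripts with whole counts.

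Library numbers 10 and 12 occur at both ages, and the titles do not say what a number stands for. Deviations of same-numbered libraries correlated at -0.04 and -0.15. So few pairs cannot decide whether the number marks something shared. With the number as a block in the fit of 23 libraries, 6 transcripts passed for age (5 higher, 1 lower) and 0 for the interaction. At an unadjusted p under 0.05 there were then 1241 of 30849 for age, no more than such a cut gives without any effect. The same fit without the block had 3179.

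Interaction calls numbered 140 without WT libraries 2 and 6 of 3 months, 308 with DESeq2 and 0 to 3 with 1 GRKO library left out. The difference in spread ranged from 0.0271 to 0.168 with 1 library left out, and that in the share of the 10 most abundant transcripts from 0.280 to 0.863 percentage points. Transcripts without overlap numbered 970 higher and 1137 lower without libraries 10 and 12, and 139 to 436 higher and 192 to 755 lower with 1 library left out. The direction of the 4 transcripts named for age and of the 2 interaction calls did not turn in the settings run. ENSDART00000050238.6 was not refitted under them. Fewer libraries make separation easier, and transcripts of a few counts limit what could be seen.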
